A study of Mus musculus with 6 samples.

Results

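The enzymes and effectors of cyclic AMP (cAMP) signaling were examined in RNA sequencing of N2a cells, a mouse neuroblastoma line, after knockdown of the circular RNA circRtn4. Members were the protein-coding genes whose symbols name an adenylyl cyclase (Adcy), a phosphodiesterase (Pde), a subunit of cAMP-dependent protein kinase (PKA, Prkac and Prkar), an A-kinase anchoring protein (Akap), a CREB, CREM or CRTC factor, or an Epac exchange factor (Rapgef3 and Rapgef4). They numbered 75 of the 54532 genes listed. By symbol they comprised 10 adenylyl cyclases, 26 phosphodiesterases, 6 PKA subunits, 16 anchoring proteins, 15 CREB, CREM, coactivator and namesake genes and 2 Epac genes. A symbol alone does not show that a product acts in cAMP signaling.

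Adenylyl cyclases make cAMP when receptors activate the stimulatory G protein, and phosphodiesterases break it down. cAMP releases the catalytic subunits of PKA from the regulatory subunits, which anchoring proteins hold at defined places in the cell, and it also activates the Epac factors. Catalytic subunits that reach the nucleus phosphorylate CREB, which drives genes with a cAMP response element (CRE) together with coactivators. In neurons and neuroendocrine cells the pathway is known for its part in neurite growth, catecholamine synthesis and the storage of transmitters in dense-core granules.

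There were 6 libraries, 3 from N2a cells transfected with a control siRNA (si-NC) and 3 from N2a cells transfected with si-circRtn4, an siRNA against circRtn4. The labels named no other difference between the groups, gave growth medium with serum for both, and listed the strain as C57BL/6. The general methods of the study changed N2a cells to a differentiation medium with retinoic acid after transfection, and the labels do not say whether these cells were so treated. The cells were 1 line under 1 siRNA, and nothing stated that the replicates were separate cultures, so p-values measure the spread between these libraries, which may be technical. Levels are FPKM, fragments scaled by library size and by 1 listed length per gene. How that length was defined is not given. Where it exceeds the length of the mRNA in these cells, FPKM is too low. Comparisons, sums and shares across genes are therefore approximate. Differences are log2 fold changes on the log2(FPKM + 1) scale, si-circRtn4 against si-NC, which understates changes of low genes. They were tested with limma and Benjamini-Hochberg adjustment over all 12749 genes whose mean FPKM reached 1, and a gene was called at an adjusted p under 0.05.

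Reads recovered on genes ranged from 14100818 to 14748929 per library in si-NC and from 13541198 to 15122063 in si-circRtn4. A single noncoding gene, Gm23935, took 20.1% to 20.7% of the summed FPKM in si-NC and 13.5% to 18.8% in si-circRtn4. Of 12 markers of noradrenergic neuroblastoma, 10 were tested and 3 were called lower (Phox2a, Dbh and Chga, and with the replicate number as a block also Ncam1, adjusted p = 0.0473), Nefl was listed at 0, and the summed level of the list was 1289 to 1371 FPKM in si-NC and 804 to 1097 FPKM in si-circRtn4. The 5 fibroblast markers summed to 0.184 to 0.476 FPKM in si-NC and 0.480 to 0.786 FPKM in si-circRtn4, and the 4 astrocyte markers to 0.178 to 0.422 and 0.0752 to 0.157 FPKM. The 4 macrophage and 3 endothelial markers summed to at most 1.38 and 0.777 FPKM, and the 4 oligodendrocyte markers to 4.96 to 5.68 and 3.82 to 5.45 FPKM. Levels of the linear gene Rtn4 were 61.0, 66.8 and 69.8 FPKM in si-NC and 50.1, 56.7 and 62.7 FPKM in si-circRtn4 (log2 fold change -0.22, limma adjusted p = 0.216, and 0.0447 with the replicate number as a block). The circle itself was not analysed here, since a table of genes does not separate it from the linear transcript.

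The sequences below show how the siRNA and miR-24-3p, the miRNA that the study linked to circRtn4, could pair with members by their seed, bases 2 to 8. A stretch of 14 of the 19 bases of the siRNA strand listed by the study read in the sense direction of an Rtn4 transcript, against 8 for its reverse complement. The listed strand was therefore taken as the sense strand, and capitals mark the 7 bases that equal the target of the seed of its complement, the guide. In miR-24-3p, a RefSeq entry on GRCm38.p6 at chr8:84208875-84208896 and chr13:63301251-63301272, capitals mark the seed.
si-circRtn4: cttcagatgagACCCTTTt
mmu-miR-24-3p: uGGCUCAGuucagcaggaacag
In the 3′ UTRs of called members, as annotated in GENCODE M21 on GRCm38, capitals mark the miR-24-3p seed site CTGAGCC or the guide seed site ACCCTTT. They lie on the minus strand of chromosome 3 at 97739871 to 97739877 for Pde4dip, and at 19226376 to 19226382 and 19223839 to 19223845 for Pde7a.
Pde4dip, miR-24-3p seed site: cctgagaaagaCTGAGCCcccttcccgagc
Pde7a, guide seed site 1: gatgaaacattACCCTTTggcggacctttt
Pde7a, guide seed site 2: gagttctatgtACCCTTTatcacgttattg

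Most members of the pathway had a mean of at least 1 FPKM in N2a cells, and few of these were called. Reads were found for 70 of the 75 members, and 5 were listed at 0 in all 6 libraries. These were Rapgef4, Pde7b, Akap4, Akap2 and Adcy1, for which a count of 0 allows up to 0.0154 to 0.0708 FPKM (3 reads). The limit cannot be read as the level of Akap2, since 84.4% of its exon bases overlap Pakap and its reads may be given to that gene or dropped. The test covered 43 members. The other 32 had a mean under 1 FPKM, at most 0.891 FPKM (Pde1b).

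Among the 43, 1 was called higher in si-circRtn4 (Akap12) and 3 were called lower (Pde4dip, Pde7a and Akap13). This was 9.30% of the members tested, beside 9.19% of all genes tested, of which 4.36% were called higher and 4.82% lower. Of all genes called, 47.5% were higher in si-circRtn4, 71.2% after rescaling to the same sum in each library (TPM), and 52.4% when Gm23935 was left out of that sum. At an unadjusted p under 0.05 there were 3 higher and 7 lower. Log2 fold changes were above 0 in 19 members and below 0 in 24, with a median of -0.013 beside 0.002 over all genes tested (0.078 beside 0.090 after rescaling to TPM, and 0.0081 beside 0.023 with Gm23935 left out), and 35 of the 43 lay within 0.25 of 0. Levels did not overlap between the groups in 15 members (5 higher and 10 lower), or 34.9%, beside 31.7% of all genes tested. With the replicate number as a block, 10 members were called (4 higher and 6 lower), or 23.3%, beside 19.0% of all genes. With a library left out in turn, 0 or 1 members were called higher and 0 or 1 lower, and none was called without si-NC replicate 2.

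**Figure D1:**
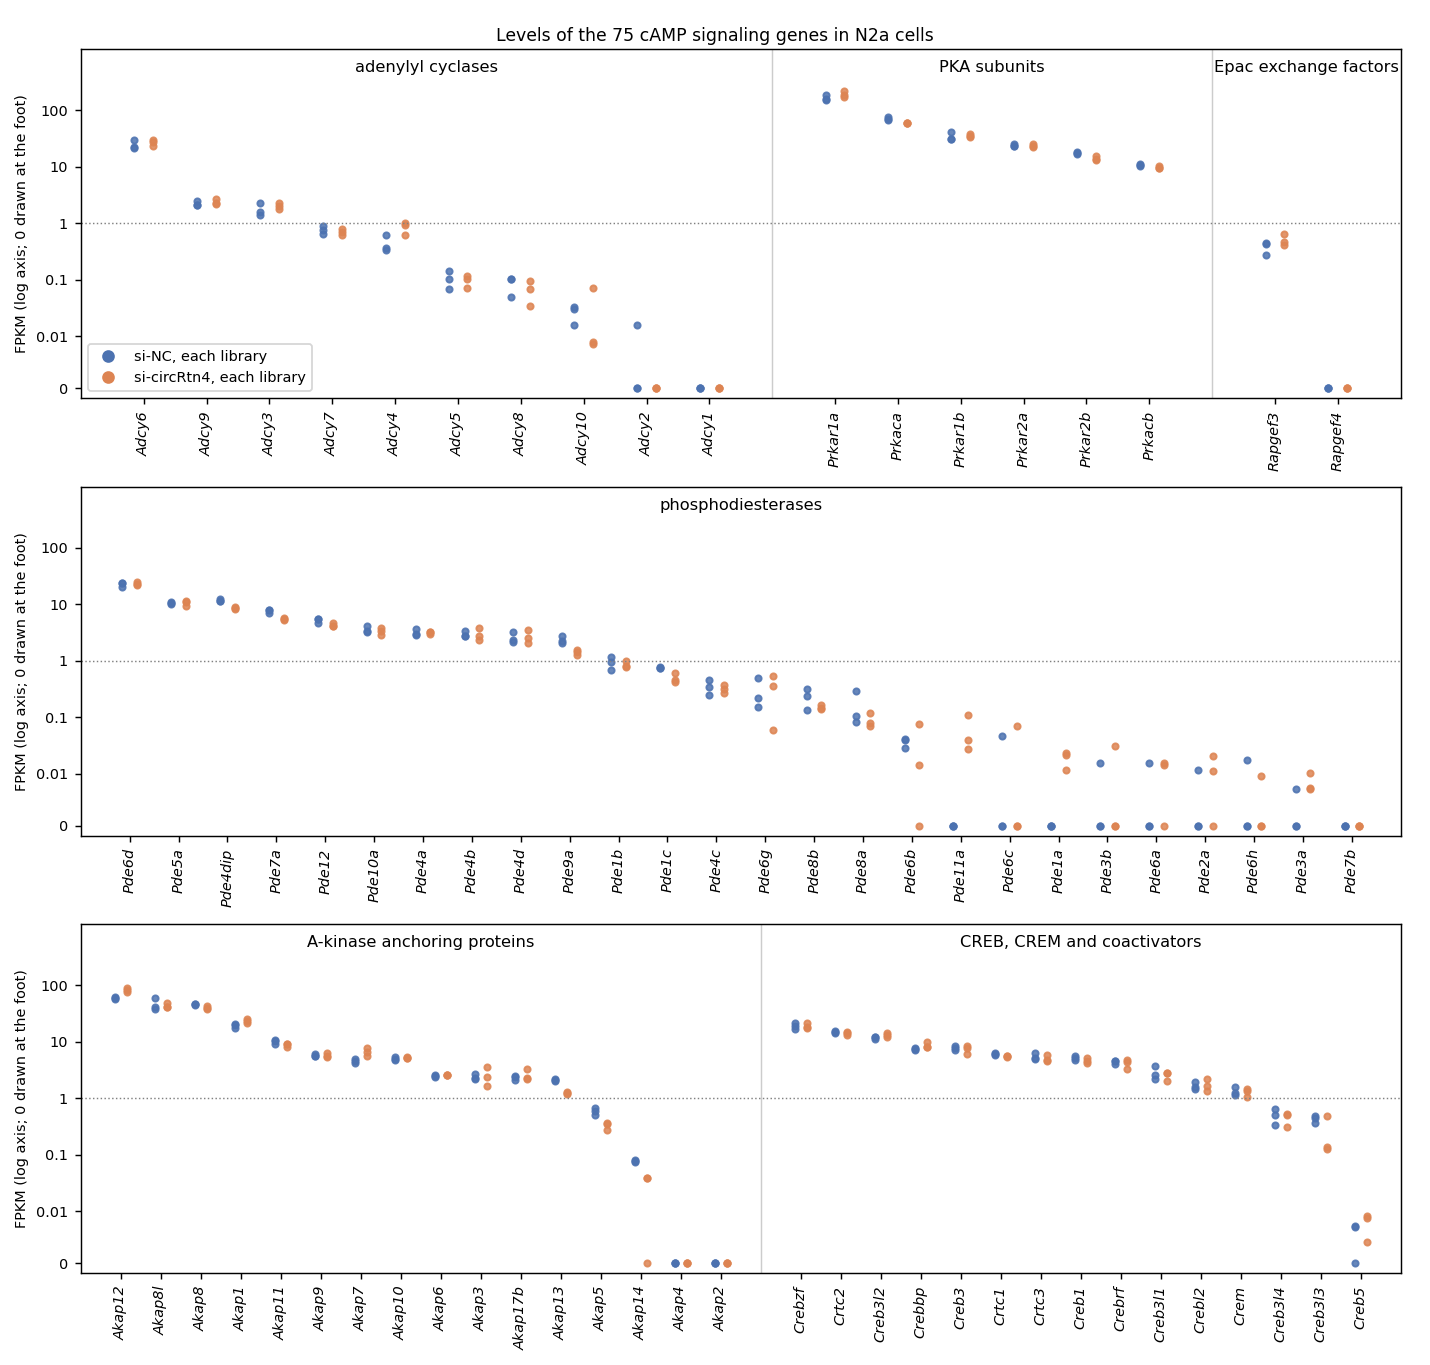
FPKM of each of the 75 members in each of the 6 libraries, on a log axis with 0 drawn at the foot, grouped by role and ordered by mean level. The dotted line marks 1 FPKM. Prkar1a stood highest, at 152 to 221 FPKM, and 1 adenylyl cyclase, Adcy6, stood above all others of its class.

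**Figure D2:**
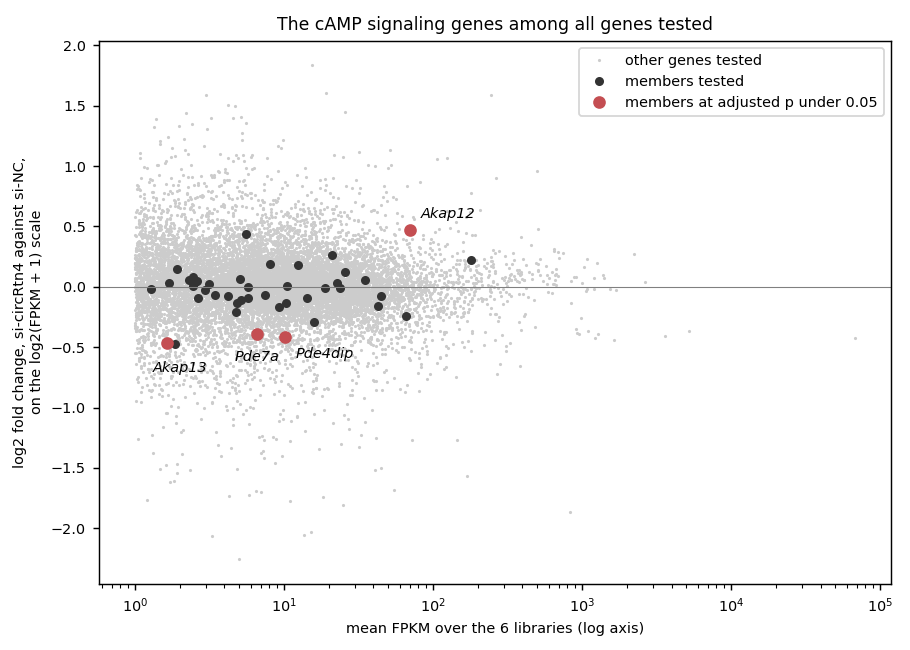
Log2 fold change (si-circRtn4 against si-NC) against mean FPKM over the 6 libraries (log axis), 1 point per gene tested, with the 43 members in dark points and the 4 called members in red. The members lie in the body of the distribution, with a median size of change of 0.096 beside 0.144 over all genes tested.

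In the synthesis of cAMP, 1 gene made up most of the adenylyl cyclase mRNA. Adcy6, a cyclase inhibited by calcium, was at 30.4, 21.3 and 22.6 FPKM in si-NC and at 30.4, 23.1 and 27.4 FPKM in si-circRtn4. It held 79.8% to 82.5% of the summed cyclase FPKM in the 6 libraries. The groups overlapped, and the log2 fold change of 0.13 (95% interval -0.22 to 0.48) did not pass the test (adjusted p = 0.656). Adcy9, which responds poorly to forskolin, averaged 2.26 ± 0.218 FPKM in si-NC and 2.39 ± 0.247 FPKM in si-circRtn4 (SD, n = 3). Adcy3, the cyclase of olfactory and primary cilia, averaged 1.77 ± 0.489 and 2.05 ± 0.237 FPKM, and 22.1% of its exon bases overlap Cenpo on the other strand, so its reads are uncertain. None of the 3 cyclases tested was called by limma, none had an unadjusted p under 0.05 and limma-voom called 0, and the other 7 had a mean of at most 0.735 FPKM. Adcy1 was listed at 0, and Adcy8, like it a cyclase stimulated by calcium, reached at most 0.105 FPKM.

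Among the genes with a phosphodiesterase symbol, 1 enzyme, Pde7a, and 1 binding protein, Pde4dip, were called. Of 26 genes, 10 were tested, and 2 of these were called lower by limma and none higher, beside 4.82% and 4.36% of all genes tested (4 lower and 0 higher at an unadjusted p under 0.05, and 3 lower and 0 higher with limma-voom).

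Pde7a, a phosphodiesterase specific for cAMP (ENSMUSG00000069094, chr3:19223108-19311322, minus strand), was at 7.93, 7.97 and 6.94 FPKM in si-NC and at 5.47, 5.37 and 5.82 FPKM in si-circRtn4. The groups did not overlap, with every si-circRtn4 library on the lower side and a mean 1.37-fold lower. The log2 fold change was -0.39 ± 0.08 (SE; adjusted p = 0.0278). The call was lost in 5 of the 6 fits that left out 1 library, all but the one without si-NC replicate 3, with adjusted p up to 0.107, after rescaling to TPM (adjusted p = 0.0706) and without the filter (adjusted p = 0.0761). Its mRNA carries both guide seed sites shown above.

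Pde4dip, or myomegalin, is a centrosome and Golgi protein that binds PDE4D and has no phosphodiesterase activity of its own (ENSMUSG00000038170, chr3:97689824-97888707, minus strand). It was at 11.6, 11.5 and 12.4 FPKM in si-NC and at 8.97, 8.32 and 8.61 FPKM in si-circRtn4. The groups did not overlap, and the mean was 1.37-fold lower. The log2 fold change was -0.41 ± 0.07 (SE; adjusted p = 0.0145). The call was lost when si-NC replicate 2 (adjusted p = 0.0576), si-NC replicate 3 (0.0534) or si-circRtn4 replicate 2 (0.0574) was left out, and held when any of the other 3 libraries was.

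Pde9a, which hydrolyses cGMP, showed the largest log2 fold change of any phosphodiesterase but did not pass the test. Its levels were 2.24, 2.06 and 2.72 FPKM in si-NC and 1.24, 1.43 and 1.55 FPKM in si-circRtn4, without overlap. The log2 fold change was -0.47 (adjusted p = 0.0586), and the gene was called with the replicate block (adjusted p = 0.0370) and with limma-voom on recovered reads (adjusted p = 0.0408). Exons of antisense genes cover 8.34% of its exon bases.

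Of the remaining phosphodiesterases that were tested, none was called. The most abundant, Pde6d, a carrier of prenylated proteins, averaged 22.6 ± 2.29 and 23.1 ± 1.16 FPKM, and Pde5a, an enzyme of cGMP, 10.4 ± 0.505 and 10.6 ± 1.21 FPKM. The cAMP-specific genes Pde4a, Pde4b and Pde4d averaged 3.14, 2.98 and 2.54 FPKM in si-NC and 3.19, 2.94 and 2.68 FPKM in si-circRtn4, with adjusted p from 0.895 to 0.938. Pde10a, which hydrolyses both nucleotides, averaged 3.59 and 3.38 FPKM. Pde12, a mitochondrial enzyme of oligoadenylates, was at 4.73, 5.47 and 5.39 FPKM in si-NC and at 4.18, 4.68 and 4.19 FPKM in si-circRtn4, without overlap (log2 fold change -0.21, unadjusted p = 0.0456, adjusted p = 0.184). Of the 16 genes whose products hydrolyse cAMP, the summed FPKM was 24.1, 21.2 and 21.5 in si-NC and 20.3, 18.3 and 20.7 in si-circRtn4, without overlap, although the groups overlapped after rescaling to TPM. Pde7a made up 32.3% to 37.5% of this sum in si-NC and 27.0% to 29.3% in si-circRtn4, whereas Pde4a, Pde4b and Pde4d together made up 36.2% to 40.7% and 43.8% to 45.0%. These sums and shares are descriptions, since the members were chosen with results known.

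PKA subunits formed the class with the highest summed FPKM, and their log2 fold changes had both signs. All 6 subunit genes were tested and limma called none (2 lower and 0 higher at an unadjusted p under 0.05, and 0 with limma-voom). The levels of 3 of the 6 (50%) did not overlap between the groups, beside 31.7% of all genes tested. All 3 were lower in si-circRtn4. Prkar1a, the type I alpha regulatory subunit, was the most abundant member of the pathway, at 152, 159 and 185 FPKM in si-NC and 175, 185 and 221 FPKM in si-circRtn4. Its groups overlapped, and the log2 fold change of 0.22 was not called (adjusted p = 0.273). Within each replicate number the si-circRtn4 library was the higher one, and the gene was called with the replicate block (adjusted p = 0.0429).

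Prkaca, the main catalytic subunit, was at 68.9, 75.6 and 69.6 FPKM in si-NC and at 58.7, 60.8 and 60.6 FPKM in si-circRtn4. The groups did not overlap, with a log2 fold change of -0.24 (95% interval -0.41 to -0.08, adjusted p = 0.0735, and 0.0336 with the replicate block). Prkacb, the other catalytic subunit, averaged 10.8 ± 0.294 and 9.79 ± 0.526 FPKM, also without overlap (log2 fold change -0.14, adjusted p = 0.283). Prkar2b, the type II beta regulatory subunit of neurons and fat cells, was at 17.7, 17.1 and 18.0 FPKM in si-NC and at 14.0, 13.1 and 15.6 FPKM in si-circRtn4. Its log2 fold change was -0.29 (adjusted p = 0.0666, and 0.0278 with the replicate block). Prkar1b, the type I beta subunit of neurons, averaged 34.6 ± 6.24 and 35.6 ± 2.10 FPKM, and Prkar2a 23.9 ± 0.963 and 23.7 ± 1.44 FPKM. Both overlapped between the groups, with log2 fold changes of 0.05 and -0.01.

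Summed over subunits, the catalytic genes stood at 82.2 ± 3.43 FPKM in si-NC and 69.8 ± 1.53 FPKM in si-circRtn4, without overlap. The regulatory genes stood at 241 ± 13.9 and 267 ± 21.9 FPKM, with overlap, and did not overlap after rescaling to TPM, where si-circRtn4 was the higher group. The ratio of regulatory to catalytic mRNA was 2.94, 2.70 and 3.19 in the si-NC libraries and 3.70, 3.65 and 4.12 in the si-circRtn4 libraries. Every si-circRtn4 library had the higher ratio, with means of 2.94 ± 0.249 and 3.82 ± 0.255 (SD, n = 3). A ratio within a library does not depend on how the library is scaled. Its size does depend on the listed gene lengths. These were 2488 bases for Prkaca (2078 to 2713 reads) and 8772 bases for Prkacb (1171 to 1452 reads). The ratio is given as a description, and levels of the proteins were not measured.

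**Figure D3:**
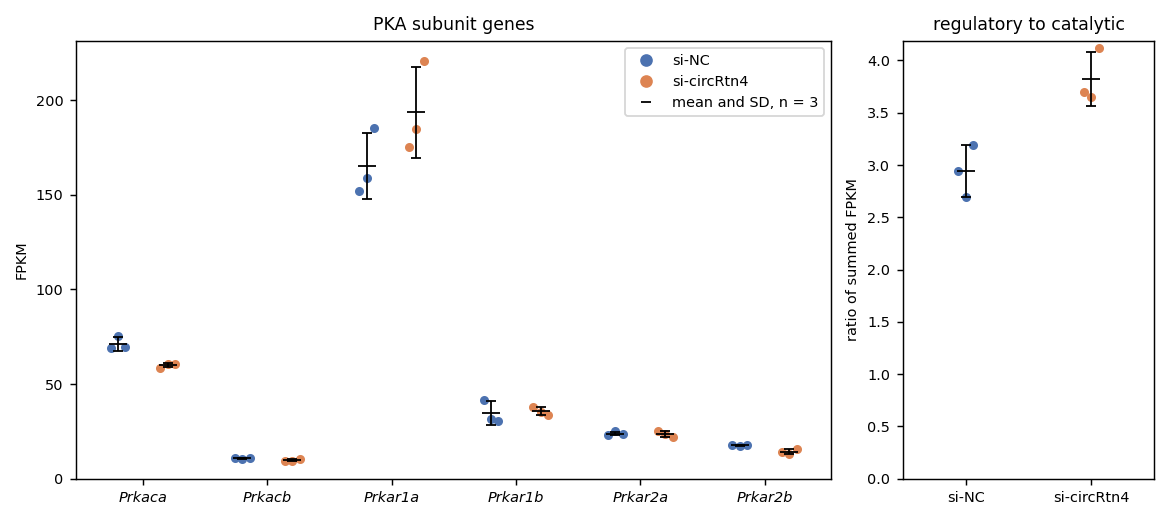
FPKM of the 6 PKA subunit genes (left) and the ratio of summed regulatory to summed catalytic FPKM (right) in each library, with the mean and SD of 3 libraries. The catalytic genes Prkaca and Prkacb do not overlap between the groups, Prkar1a does, and the ratio is 2.70 to 3.19 in si-NC and 3.65 to 4.12 in si-circRtn4.

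The anchoring proteins held 1 called gene in each direction. Of 16 genes, 12 were tested, with 1 called higher and 1 lower (16.7%, beside 9.19% of all genes tested). The levels of 5 did not overlap between the groups (41.7%, beside 31.7% of all genes tested).

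Akap12, or gravin, a scaffold at the plasma membrane that binds PKA and protein kinase C, was the anchoring protein with the highest level (ENSMUSG00000038587, chr10:4266380-4359470, plus strand). It was at 58.5, 56.6 and 61.4 FPKM in si-NC and at 82.1, 74.9 and 88.6 FPKM in si-circRtn4. The groups did not overlap, with every si-circRtn4 library on the higher side and a mean 1.39-fold higher. The log2 fold change was 0.47 ± 0.08 (SE; adjusted p = 0.0173). Leaving out si-NC replicate 2 gave an adjusted p of 0.0738, leaving out si-circRtn4 replicate 1 gave 0.0537, and the gene was called in the other 12 of 14 alternative fits. Its share of the summed anchoring protein FPKM was 27.0% to 30.4% in si-NC and 35.3% to 38.6% in si-circRtn4.

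Akap13, an anchoring protein that also activates the GTPase RhoA (ENSMUSG00000066406, chr7:75455534-75754609, plus strand), was lower in si-circRtn4. Its levels were 1.99, 2.11 and 2.18 FPKM in si-NC and 1.18, 1.23 and 1.28 FPKM in si-circRtn4, without overlap. The mean was 1.70-fold lower, and the log2 fold change was -0.47 ± 0.11 (SE; adjusted p = 0.0383). The call was lost in each of the 6 fits that left out 1 library (adjusted p 0.0705 to 0.131), after rescaling to TPM (adjusted p = 0.0652, and 0.0502 without Gm23935) and without the filter (adjusted p = 0.114). With limma-voom on the recovered reads, 352 to 637 per library, the log2 fold change was -0.74 (adjusted p = 0.000652).

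Akap7, a short membrane anchor that tethers PKA near ion channels, and Akap1, which anchors PKA at the outer mitochondrial membrane, had mean levels 1.44-fold and 1.21-fold higher in si-circRtn4 without passing the test. Akap7 was at 5.03, 4.23 and 4.49 FPKM in si-NC and at 7.70, 5.57 and 6.59 FPKM in si-circRtn4 (log2 fold change 0.44, adjusted p = 0.0591, and 0.0156 with the replicate block). It was also called with limma-voom (0.0320), after rescaling to TPM (0.0435) and with a filter at 5 FPKM (0.0492). Akap1 was at 19.5, 20.2 and 17.8 FPKM in si-NC and at 21.3, 25.3 and 23.0 FPKM in si-circRtn4 (log2 fold change 0.26, adjusted p = 0.114, 0.0492 with the replicate block and 0.0391 after rescaling to TPM). Neither overlapped between the groups. The genes of the nuclear proteins Akap8 and Akap8l averaged 45.0 ± 0.967 and 46.4 ± 11.3 FPKM in si-NC and 40.3 ± 1.98 and 43.2 ± 4.62 FPKM in si-circRtn4, and neither was called. Akap9, the large scaffold of the Golgi and centrosome, was at 5.74 FPKM on average in both groups, with a 95% interval of the log2 fold change from -0.20 to 0.19.

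In the nucleus, no CREB, CREM or coactivator gene was called by limma, 0 had an unadjusted p under 0.05, and limma-voom called 0. Of 15 genes 12 were tested, 3 of them with log2 fold changes above 0 and 9 below, between -0.13 and 0.19, and Crebzf, Creb3 and Crem turned from below to above 0 after rescaling to TPM. Creb1, the CREB substrate of PKA, was at 4.81, 5.54 and 5.12 FPKM in si-NC and at 4.62, 4.15 and 5.13 FPKM in si-circRtn4. Its groups overlapped, with a log2 fold change of -0.13 (95% interval -0.35 to 0.09, adjusted p = 0.442). Crem, whose short product ICER represses CREs, averaged 1.31 ± 0.225 and 1.28 ± 0.197 FPKM. The class was set by symbol and holds namesakes of CREB, so its counts are not counts of PKA targets. The highest genes of the class were Crebzf, Crtc2 and Creb3l2. Crebzf, a leucine zipper factor, averaged 19.2 ± 2.29 and 19.0 ± 1.96 FPKM. Crtc2, a CREB coactivator kept in the cytoplasm by salt-inducible kinases, averaged 14.9 ± 0.577 and 13.9 ± 0.747 FPKM (log2 fold change -0.09, adjusted p = 0.484). The acetyltransferase Crebbp at 7.49 ± 0.347 and 8.69 ± 0.959 FPKM and the membrane-bound Creb3l2 at 11.5 ± 0.543 and 13.3 ± 1.17 FPKM did not overlap between the groups, with log2 fold changes of 0.19 and 0.18 and adjusted p of 0.244 and 0.221. Crtc1 did not overlap either, at 6.01 ± 0.262 and 5.55 ± 0.109 FPKM (log2 fold change -0.10, adjusted p = 0.455).

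**Figure D4:**
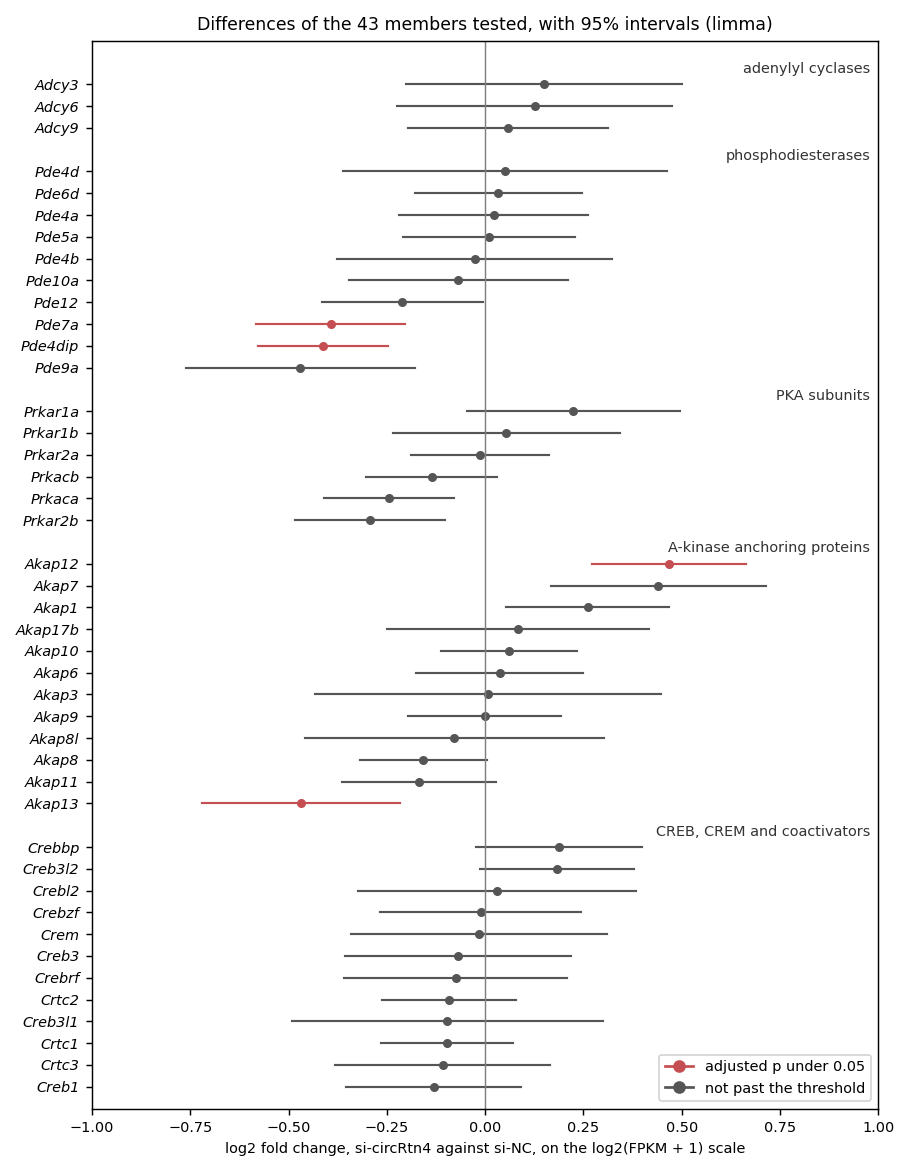
Log2 fold changes (si-circRtn4 against si-NC, log2(FPKM + 1) scale) of the 43 members tested, with 95% intervals from limma, grouped by role. The called members, in red, are Pde7a, Pde4dip, Akap12 and Akap13, and all intervals of the CREB group span 0.

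The 2 Epac genes were low or listed at 0. Rapgef3 was at 0.450, 0.274 and 0.429 FPKM in si-NC and at 0.643, 0.406 and 0.467 FPKM in si-circRtn4, and Rapgef4 was listed at 0. Of the 27 members that had reads without being tested, 5 did not overlap between the groups, beside 10.3% of the 15693 genes with reads below the filter. The better covered of these were Akap5, the anchoring protein of the postsynaptic density, at 0.505, 0.681 and 0.597 FPKM in si-NC and 0.278, 0.358 and 0.343 FPKM in si-circRtn4, and Pde1c, a calmodulin-dependent phosphodiesterase, at 0.743, 0.764 and 0.758 FPKM and 0.455, 0.419 and 0.610 FPKM. Without the filter their adjusted p were 0.186 and 0.312. The other 3, Akap14, Pde11a and Pde1a, had at most 9 reads in any library.

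Called differences larger than those of the members were found in genes around them. These genes were listed with earlier results of these data known, so counts and medians over each list are descriptions. Of 32 G proteins and receptors that act on adenylyl cyclase, 13 were tested, with 1 called lower and none higher by limma, beside 4.82% and 4.36% of all genes tested (3 lower and 1 higher at an unadjusted p under 0.05, and 2 lower and 0 higher with limma-voom) and a median log2 fold change of -0.017. The called gene was Adcyap1r1, the receptor PAC1 for the neuropeptide PACAP, which couples to the stimulatory G protein. It was at 40.1, 39.9 and 38.2 FPKM in si-NC and at 10.2, 9.94 and 11.7 FPKM in si-circRtn4, without overlap. The mean was 3.72-fold lower (log2 fold change -1.80 ± 0.08 (SE), adjusted p = 0.000212), and the call held in all 14 alternative fits. Gnas, the stimulatory G protein itself, averaged 23.5 ± 1.61 and 19.8 ± 3.10 FPKM with overlap (adjusted p = 0.235). With the replicate block 3 were called lower, the others being Adra2b, an alpha-2 adrenergic receptor, and Gipr, the receptor of the hormone GIP. Adra2b was at 2.15, 1.36 and 1.67 FPKM in si-NC and at 1.12, 0.384 and 0.651 FPKM in si-circRtn4 (log2 fold change -0.68, adjusted p = 0.0748, and 0.0227 with the block), and limma-voom called it too. Gipr averaged 5.08 ± 0.641 and 3.71 ± 0.0898 FPKM (log2 fold change -0.36, adjusted p = 0.0620, and 0.0440 with the block). Neither overlapped between the groups. Calcrl, a receptor of adrenomedullin and CGRP that lay below the filter, was at 0.109, 0.0852 and 0.0878 FPKM in si-NC and at 0.504, 0.461 and 0.479 FPKM in si-circRtn4 (6 to 35 reads), and was called higher in the fit without the filter (adjusted p = 0.0196).

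Of 17 PKA inhibitors and other modifiers, 9 were tested, with 2 called higher and 1 lower (33.3%, beside 9.19% of all genes tested). At an unadjusted p under 0.05 there were 3 higher and 1 lower, and limma-voom called 2 higher and 1 lower. The median log2 fold change was 0.058. Pkia, the heat-stable inhibitor that binds free catalytic subunits, was at 16.8, 17.4 and 18.9 FPKM in si-NC and at 8.65, 8.72 and 10.6 FPKM in si-circRtn4. The groups did not overlap, the mean was 1.90-fold lower (log2 fold change -0.86, adjusted p = 0.00347), and the call held in all 14 alternative fits. Sik1, a kinase that is induced by cAMP and phosphorylates the CRTC coactivators, was at 7.84, 6.98 and 7.78 FPKM in si-NC and at 9.77, 10.4 and 9.71 FPKM in si-circRtn4 (log2 fold change 0.36, adjusted p = 0.0284). Popdc3, a membrane protein with a cAMP-binding Popeye domain, was at 3.02, 2.40 and 2.88 FPKM and at 4.96, 4.69 and 3.57 FPKM (log2 fold change 0.52, adjusted p = 0.0481). Neither gene overlapped between the groups. Both calls were lost in 5 of the 6 fits that left out 1 library, with adjusted p up to 0.109 for Sik1 and 0.149 for Popdc3. Those that kept a call left out si-NC replicate 1 for Sik1 and si-circRtn4 replicate 3 for Popdc3. Both were also lost without the filter (adjusted p = 0.0677 and 0.151), and Popdc3 after rescaling to TPM without Gm23935 (adjusted p = 0.0544).

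Of 25 genes long known as CREB targets, 15 were tested, with 6 called lower and none higher by limma, beside 4.82% and 4.36% of all genes tested (6 lower and 1 higher at an unadjusted p under 0.05, and 6 lower and 0 higher with limma-voom) and a median log2 fold change of -0.13 beside 0.002 over all genes tested. The called genes were the granins Chgb and Chga, the enzymes Th and Dbh and the nuclear receptors Nr4a3 and Nr4a2. Since this list too was chosen with earlier results known, its count and median do not test CREB targets as a set. Sik1, which is induced by cAMP and was called higher, was counted with the modifiers and not in this list. Chgb, a granin of dense-core granules, was at 1271, 1167 and 1462 FPKM in si-NC and at 298, 315 and 478 FPKM in si-circRtn4 (log2 fold change -1.86, adjusted p = 0.00283). Chga, the related chromogranin A, was at 279, 247 and 238 FPKM and at 78.7, 86.4 and 90.6 FPKM (log2 fold change -1.57, adjusted p = 0.000641). Neither overlapped between the groups. Vgf, another abundant protein of dense-core granules, was at 182, 172 and 205 FPKM and at 188, 241 and 190 FPKM, with overlap (log2 fold change 0.14, adjusted p = 0.524). Both enzymes of catecholamine synthesis were without overlap. Th, the rate-limiting enzyme, was at 2.41, 2.26 and 2.96 FPKM in si-NC and at 0.565, 0.815 and 0.756 FPKM in si-circRtn4 (log2 fold change -1.05, adjusted p = 0.00553). Dbh, which makes noradrenaline, was at 3.72, 5.72 and 8.52 FPKM and at 0.522, 0.621 and 0.664 FPKM (log2 fold change -2.07, adjusted p = 0.00352). Dbh and Chga also belong to the markers of noradrenergic cells, whose summed level is given above.

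Of 3 orphan nuclear receptors, 2 were called. Nr4a3 was at 2.84, 2.19 and 2.42 FPKM in si-NC and at 0.986, 0.676 and 0.942 FPKM in si-circRtn4 (log2 fold change -0.90, adjusted p = 0.00990), and Nr4a2 at 4.19, 3.28 and 2.55 FPKM and at 2.06, 1.58 and 1.08 FPKM (log2 fold change -0.75, adjusted p = 0.0481). Nr4a2 lost its call in all 6 fits that left out 1 library (adjusted p 0.0504 to 0.130), with a pseudocount of 0.1 (0.0512), after rescaling to TPM (0.0606, and 0.0620 without Gm23935) and without the filter (0.161). Nr4a1, by contrast, averaged 7.58 ± 0.607 and 7.77 ± 0.210 FPKM and was not called. The early genes that CREB induces within minutes were not called either. Fos averaged 1.60 ± 0.238 and 2.03 ± 0.567 FPKM, Junb 40.8 ± 2.29 and 37.2 ± 0.817 FPKM, and Egr1 12.8 ± 2.19 and 12.7 ± 4.10 FPKM. Among them Junb did not overlap between the groups and was lower in si-circRtn4 (adjusted p = 0.322). Of the 15 CREB targets tested, 9 did not overlap (60%, beside 31.7% of all genes tested), 7 lower and 2 higher. The higher ones were Dusp1, given below, and Per1. Per1 averaged 3.85 ± 0.179 FPKM in si-NC and 4.34 ± 0.283 FPKM in si-circRtn4 (log2 fold change 0.14, adjusted p = 0.348).

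**Figure D5:**
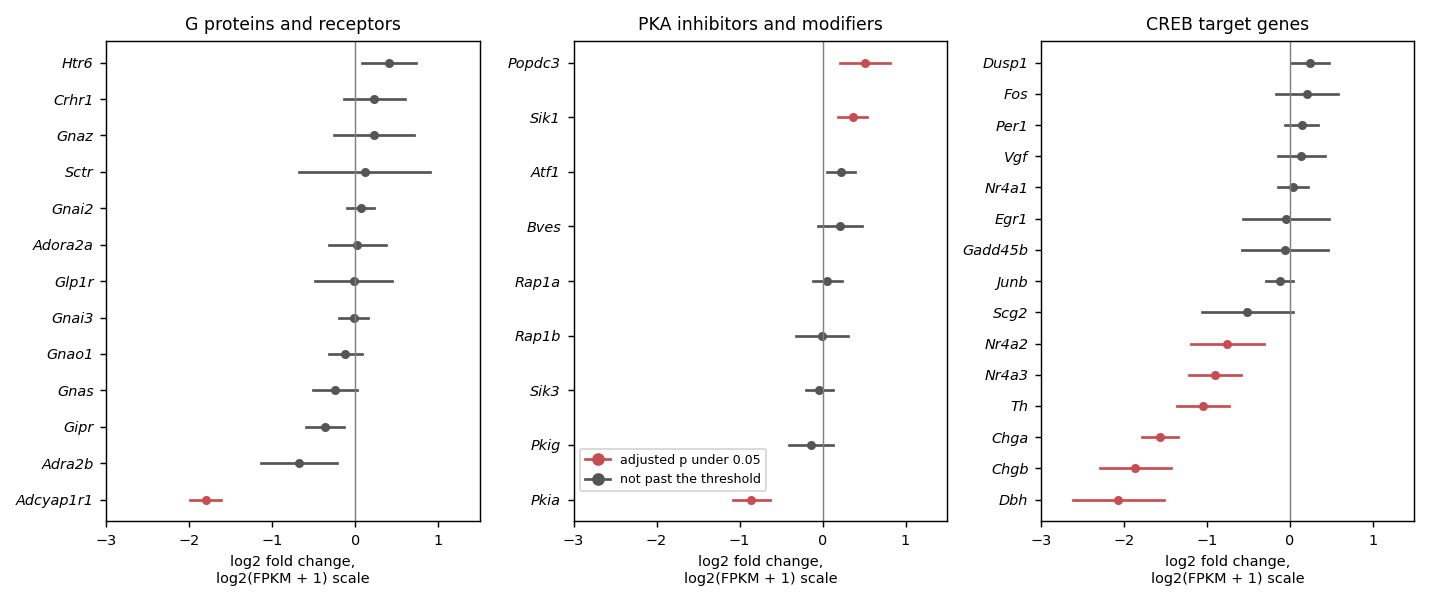
Log2 fold changes with 95% intervals (limma, log2(FPKM + 1) scale) of the tested genes in 3 lists around the members: G proteins and receptors, PKA inhibitors and modifiers, and CREB target genes. Called genes are in red, with Adcyap1r1 at -1.80, Pkia at -0.86 and 6 CREB targets between -2.07 and -0.75.

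Promoters were searched for the CRE, the palindrome TGACGTCA, and for its 5-base part TGACG on either strand (CGTCA on the other), which each full CRE also holds. Windows of 300 bases, spanning each start and lying mostly upstream of it, in RefSeq on GRCm38.p6, were found for 60 of the 75 members. The full CRE stood in 2 of them (3.33%), Prkar1a and Creb5, beside 2.03% of 27025 genes with a promoter. The 5-base motif stood in 23 (38.3%), beside 23.0% of the same 27025 genes. Those genes were not limited to protein-coding or tested genes, as the members were to protein-coding ones, so the shares are of unlike sets. Among the CREB targets that were tested and had a window, 4 of 13 held the full CRE (Dusp1, Scg2, Chgb and Th) and 12 the 5-base motif. The stretches around these elements are shown because genes with the same element had log2 fold changes of either sign, and capitals mark the CRE.
Prkar1a: gcgaggcgcatTGACGTCAgcagccgaacg
Chgb: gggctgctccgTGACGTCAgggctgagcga
Th: cagaggggcttTGACGTCAgcctggccttt
Scg2: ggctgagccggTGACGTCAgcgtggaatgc
Dusp1: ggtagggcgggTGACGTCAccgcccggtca
They lie at chr11:109650889-109650918 (plus), chr2:132781559-132781588 (plus), chr7:142900022-142900051 (minus), chr1:79440076-79440105 (minus) and chr17:26508597-26508626 (minus). The element began 49 bases upstream of a start in Prkar1a, 72 in Chgb, 45 in Th, 68 in Scg2 and 143 in Dusp1. Chgb and Th were called lower. Scg2, another granin, averaged 83.1 ± 17.8 and 58.8 ± 17.5 FPKM (log2 fold change -0.51, adjusted p = 0.219, and 0.0120 with the replicate block), and Dusp1, a phosphatase of MAP kinases, 8.63 ± 0.216 and 10.4 ± 1.47 FPKM (log2 fold change 0.24, adjusted p = 0.181). A match of letters is not evidence of binding.

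Seed sites in the longest annotated 3′ UTR were counted in the 43 members tested. The miR-24-3p site stood in 9 members (20.9%), beside 19.6% of 10694 genes, and 4 of the 9 had log2 fold changes below 0. Their median log2 fold change was 0.021, and -0.014 in the other 34, beside 0.0043 and -0.00093 over genes with and without the site. The members with the site were Prkar1b, Adcy6, Creb3l2, Prkacb, Pde4dip, Pde12, Pde10a, Pde4a and Crebl2, of which Pde4dip was called. The guide seed site stood in 10 members (23.3%), beside 12.5% of genes, and 8 of the 10 had log2 fold changes below 0. These were Prkar1b, Prkacb, Pde5a, Akap11, Pde7a, Crtc1, Crebrf, Creb1, Pde12 and Pde4b, of which Pde7a was called. The median log2 fold change was -0.11 in members with the guide site and 0.008 in the other 33, beside -0.049 and 0.007 over genes with and without it. The members with a site share sequence, not cells, and these medians are descriptions.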

How the data were processed

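RNA was sequenced from N2a cells in 6 libraries, grouped by their labels. The authors deposited FPKM per gene with gene length (a value in bases, unit other), coordinates and biotype. The submitters' processing notes name Bowtie 0.12.2 and the builds mm8 and mm9 without roles, whereas 98.3% of the listed genes had the start and end of GENCODE M21 (GRCm38), among them 71 of the 75 members. The counting tool and the use of strand are not given in the sources used here. Exons of 22 members overlap another gene, so their reads may be shared. A further 6 columns of other samples were not used.

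FPKM times gene length, divided by a step fitted for each library, gave whole reads for 100% of the values checked (within 0.02 of a whole number). Values of 0 and the highest counts were left out of this check. The floor of 3 reads covers counting error only, and 95% intervals of log2 fold changes, from limma, cover the spread between libraries. Log2(FPKM + 1) was fitted with limma 3.58.1 (R 4.3.3, lmFit and eBayes with trend) on genes whose mean FPKM reached 1, adjusted by Benjamini-Hochberg. Tables were made with Python 3.11.15. In data simulated for si-circRtn4 against si-NC at a dispersion of 0.01, 12738 genes were tested, of which 193 had been changed 2-fold. Of the changed genes 83.9% were called, and 4.1% of the calls were false. Smaller changes, such as those of the called members, were not simulated. The exact permutation test of 3 against 3 cannot go below p = 0.1, which every gene without overlap reached, so it decides no call. Same-numbered libraries deviated together (r = 0.331, 0.190 and 0.226, other pairs at most 0.009), so the block fit is given where it changes the call of a member or of a gene in the lists. The pairing comes from the replicate numbers in the labels.

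Members and lists were chosen with earlier results of these data known. Members were named when called, when among the 3 highest tested of their class, or when among the 5 largest other changes at an unadjusted p under 0.05. Other members were named for their role, after their values were seen. Of each list the called genes were named, at most 6, and others for their role. Alternatives were a pseudocount of 0.1, no filter, a filter at 5 FPKM, TPM with and without Gm23935, quantile normalization, limma-voom on recovered reads, the replicate block and leaving out each library.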

Additional observations from a re-analysis of the deposited data

How the results depend on the processing

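The number of members called higher was 1 in the fit reported, 2 with a filter at a mean of 5 FPKM, 3 after rescaling to TPM, 2 with limma-voom, 4 with the replicate block and 0 to 1 with a library left out. The number called lower was 3, and 1 without a filter, 1 after rescaling to TPM, 6 with the replicate block and 0 to 1 with a library left out. Over all genes 556 were called higher, and 210 without a filter, 972 with TPM, 903 with limma-voom, 1185 with the replicate block and 163 to 407 with a library left out. Called lower were 615, and 261 without a filter, 393 with TPM, 1243 with the replicate block and 217 to 419 with a library left out. The smaller counts with a library left out come with fewer samples, and those without a filter with 28442 genes tested. With Gm23935 left out of the TPM sum, 592 were called higher and 538 lower, and the median of all genes was 0.023. The causes of the changes with limma-voom, the replicate block and the filter at 5 FPKM were not tested.

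Rescaling to TPM moved the log2 ratio of summed FPKM to -0.044 for phosphodiesterase symbols, 0.150 for PKA, 0.225 for anchoring proteins and 0.081 for the CREB class. The phosphodiesterase sum includes Pde6d, Pde4dip and Pde12, which were described above as other kinds of protein. The median of all genes moved to 0.090. It also turned the sign of small log2 fold changes to 0.013 in Akap8l, 0.078 in Prkar2a, 0.079 in Crebzf, 0.012 in Creb3, 0.086 in Akap9, 0.0048 in Pde10a, 0.048 in Pde4b and 0.051 in Crem. TPM without Gm23935 gave 0.0081 in Prkar2a, 0.0099 in Crebzf and 0.020 in Akap9, and limma-voom 0.0090, 0.013 and 0.020 in the same genes. Quantile normalization gave 0.0033 in Prkar2a, -0.0033 in Akap3 and -0.0028 in Pde4a, and a pseudocount of 0.1 gave -0.0043 in Akap3.

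With a library left out, the sign turned in 19 members, none of them called. Their ranges were -0.0018 to 0.11 in Adcy9, -0.060 to 0.17 in Akap17b, -0.19 to 0.19 in Akap3, -0.21 to 0.11 in Akap8l, -0.058 to 0.038 in Akap9, -0.16 to 0.057 in Creb3, -0.22 to 0.064 in Creb3l1, -0.094 to 0.14 in Crebl2, -0.16 to 0.041 in Crebrf, -0.092 to 0.072 in Crebzf, -0.065 to 0.063 in Crem, -0.15 to 0.015 in Pde10a, -0.036 to 0.098 in Pde4a, -0.17 to 0.087 in Pde4b, -0.11 to 0.18 in Pde4d, -0.056 to 0.095 in Pde5a, -0.050 to 0.079 in Pde6d, -0.023 to 0.19 in Prkar1b and -0.053 to 0.031 in Prkar2a. The replicate block changed no call of a member beyond the 6 it added, which were Prkar1a, Prkaca, Prkar2b, Pde9a, Akap7 and Akap1.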
